A study of Mus musculus with 2 samples.

Results

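The S100 genes encode small calcium-binding proteins. Here 10 of them were described in cultured bone marrow stromal cells, PPARg-deficient or PPARg-floxed: S100a1, S100a4, S100a6, S100a8, S100a9, S100a10, S100a11, S100a13, S100a16 and S100b. They were taken by name and are 10 of the 19279 gene symbols that transcript structure gave to the deposited loci. The cells were mesenchymal stem/progenitor cells (MSCs) that came from CD-1 mice aged 3 months and were cultured in DMEM containing 10% FBS, and their RNA was sequenced. There was 1 library labelled PPAR KO (PPARg-deficient cells) and 1 labelled PPAR-f/f with the genotype PPAR-flox (PPARg-floxed cells, whose Pparg alleles carry recombination sites). The labels do not say how or in which cells Pparg was deleted, which exons the sites flank, whether animals were pooled, or whether the floxed cells also received a recombinase. With 1 library per genotype there was no spread between cultures to test against, so every difference below is a difference between these libraries.

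S100 proteins are vertebrate proteins with a pair of EF-hand loops that mostly form dimers. On binding calcium most of them open a hydrophobic surface that holds a partner protein, such as an annexin or a myosin heavy chain. S100a10 is the exception, since its loops no longer bind calcium and it is permanently in the open form. Some members also leave the cell and act as extracellular signals through the receptor RAGE or through TLR4. In stromal cells and fibroblasts the family is known for S100a4, widely used as a fibroblast marker, and for the abundant S100a6, S100a10 and S100a11.

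Levels are in FPKM (fragments scaled by transcript length and library size), added up over all transcripts of a gene. A locus was kept when it reached 1 FPKM in at least 1 library and its longest transcript was at least 300 nt, which held for 10765 loci. Log2 folds compare deficient with floxed cells after adding a pseudocount of 1 FPKM to each. The median kept locus was itself higher in the deficient library by 0.86 on this scale (1.81-fold). A fold called relative below has that median subtracted, and a deposited fold has not. A gene was called when its relative fold passed 2-fold in size. Transcript coverage summed to 1728 megabases in the deficient library and 1383 megabases in the floxed library, and read counts were not used here. Pparg, the targeted gene, was at 1.39 FPKM in the deficient library and 6.86 FPKM in the floxed library. Of 15 stromal markers 12 were kept, 2 of them called higher and 1 lower (5 and 0 on the deposited scale), with a median relative log2 fold of -0.08. Over all kept loci 10.3% were called higher and 11.8% lower, and 41.9% and 4.73% passed 2-fold as deposited. Those called higher were Vim, the vimentin gene, at 442 FPKM in deficient cells and 51.2 FPKM in floxed cells, and Cxcl12, a chemokine gene, at 318 FPKM in deficient cells and 60.4 FPKM in floxed cells. The one called lower was Nt5e, which encodes CD73, at 1.01 FPKM in deficient cells and 1.86 FPKM in floxed cells. Thy1, Eng and Lepr were under 1 FPKM in both libraries.

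Of the 10 members, 8 were kept, and S100a8 and S100a9 were listed at 0 in both libraries. Relative to the median gene, S100a4 and S100a16 were at least 2-fold higher in the deficient library and S100b was at least 2-fold lower. The other 5 kept members lay within 2-fold. The same 3 members passed 2-fold in the same directions on the deposited scale. Over all kept loci 10.3% were called higher and 11.8% lower (41.9% and 4.73% on the deposited scale), against 2 and 1 of the 8 kept members. The median relative log2 fold of the kept members was -0.52, against 0 for all kept loci by construction. Of these 8, 6 lay below the median gene although 6 were higher as deposited, so for S100a6, S100a10, S100a11 and S100a13 the direction turned with the scaling.

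**Figure D1:**
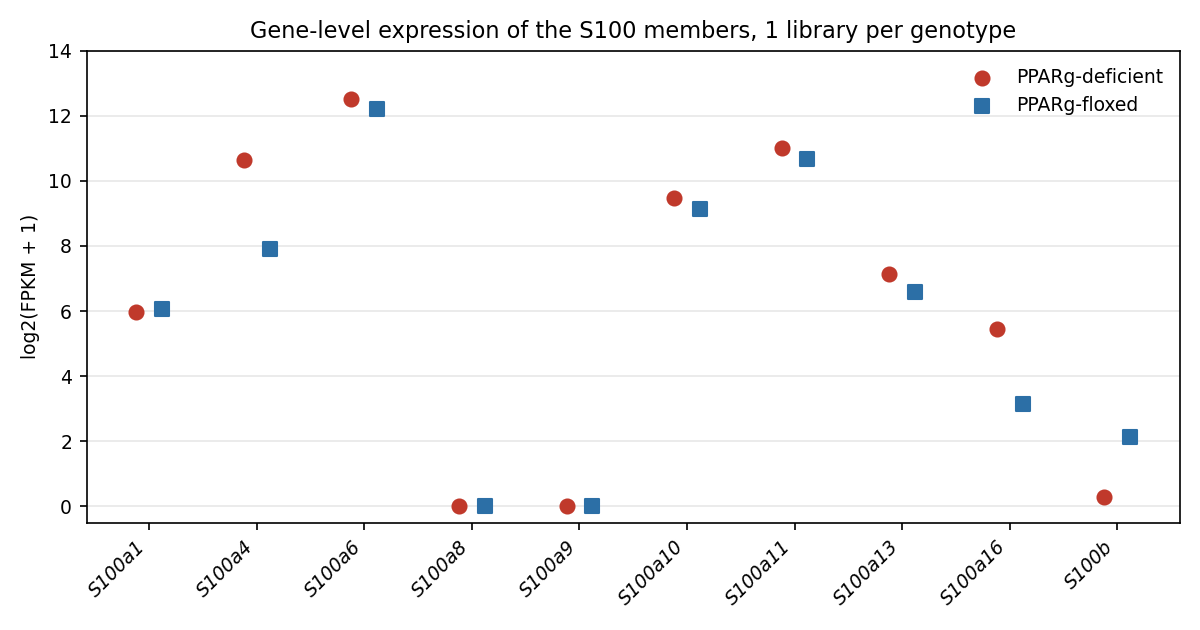
Level of each S100 member as log2(FPKM + 1) on the vertical axis, with circles for the PPARg-deficient library and squares for the PPARg-floxed library, 1 library each. The libraries lie far apart for S100a4, S100a16 and S100b, S100a6 is highest in both, and S100a8 and S100a9 sit at 0 in both.

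**Figure D2:**
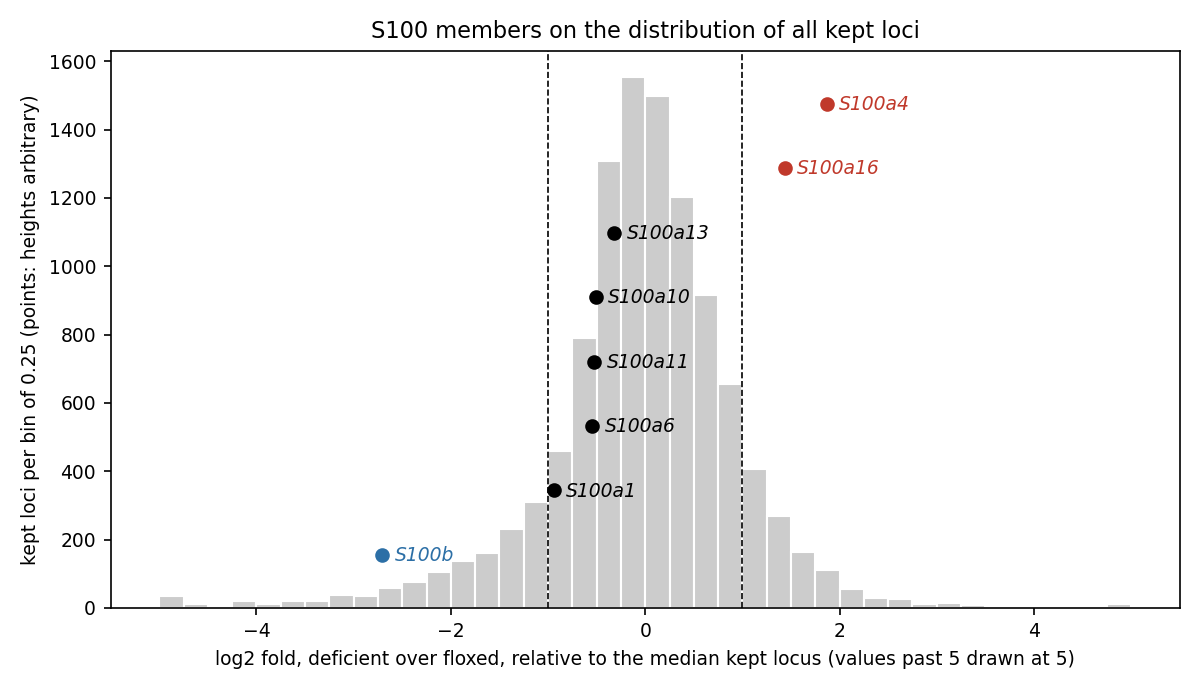
Relative log2 fold of the 8 kept members (points, at arbitrary heights) on the distribution of this fold over 10765 kept loci (bars, number of loci per bin), with dashed lines at 2-fold. S100a4 at 1.87 and S100a16 at 1.44 lie right of the lines, S100b at -2.71 lies left, and the other 5 lie between -0.94 and -0.32.

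The promoter windows of the 3 called members are shown with that of S100a11, an abundant member within 2-fold, as the sequence in which their regulation would be looked for. They are the 250 bases before a RefSeq transcription start (GRCm38.p6, a later build than the mm9 of the deposited files), 5′ to 3′ on the gene's strand. The window of S100a4 is chr3:90603520-90603769 on the plus strand, that of S100a16 chr3:90537004-90537253 (plus), that of S100b chr10:76253586-76253835 (plus) and that of S100a11 chr3:93520246-93520495 (plus). For S100a16 the table also has a second start, whose window is not printed. Which RefSeq start belongs to which deposited transcript was not determined, since the builds differ. RefSeq windows were found for 9 of the 10 members, and S100a10 had none. Capitals mark matches, on either strand, to the motifs searched: AGGTCA (the hexamer of nuclear receptor sites), AGGTCANAGGTCA (the repeat bound by PPAR with RXR, which holds AGGTCA at both ends), TGANTCA (AP-1) and TATAAA (the TATA box).
S100a4: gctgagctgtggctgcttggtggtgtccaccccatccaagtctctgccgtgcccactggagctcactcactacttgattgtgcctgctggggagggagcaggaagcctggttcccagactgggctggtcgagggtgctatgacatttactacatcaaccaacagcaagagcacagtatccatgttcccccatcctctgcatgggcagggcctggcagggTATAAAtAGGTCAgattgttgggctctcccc
S100a16: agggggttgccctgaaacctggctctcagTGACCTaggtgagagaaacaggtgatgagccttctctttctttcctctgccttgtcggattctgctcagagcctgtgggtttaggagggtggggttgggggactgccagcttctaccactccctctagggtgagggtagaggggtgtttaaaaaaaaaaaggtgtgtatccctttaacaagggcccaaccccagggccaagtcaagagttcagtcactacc
S100b: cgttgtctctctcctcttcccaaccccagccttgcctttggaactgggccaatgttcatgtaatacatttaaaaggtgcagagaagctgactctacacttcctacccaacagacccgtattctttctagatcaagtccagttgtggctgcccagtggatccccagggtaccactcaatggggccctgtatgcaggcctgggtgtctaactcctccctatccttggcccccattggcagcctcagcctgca
S100a11: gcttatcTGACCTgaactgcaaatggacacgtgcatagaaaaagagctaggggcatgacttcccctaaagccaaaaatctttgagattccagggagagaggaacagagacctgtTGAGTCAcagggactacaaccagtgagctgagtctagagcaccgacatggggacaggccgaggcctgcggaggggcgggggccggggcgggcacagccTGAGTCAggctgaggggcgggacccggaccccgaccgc
In the S100a4 window TATAAA lay at -31 to -26 and AGGTCA at -24 to -19, counted from the start. The S100a16 window held AGGTCA on the other strand at -221 to -216, and the S100a11 window held it on the other strand at -243 to -238 and TGAGTCA, a form of the AP-1 motif, at -136 to -130 and -38 to -32. The window of the second S100a16 start, not printed, held 1 match, TGAATCA, another form of the AP-1 motif, at -192 to -186 from that start. No match lay in the S100b window. Among all 32851 windows of this length AGGTCA was found in 14%, TATAAA in 12.4%, TGANTCA in 6.75% and the AGGTCANAGGTCA repeat in 0.0335%. That repeat was in none of the windows of the 9 members. These matches describe the sequence only.

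S100a4, whose protein binds the heavy chain of non-muscle myosin IIA and which is also secreted, was at 1581 FPKM in the deficient library and 238 FPKM in the floxed library. The ratio of these levels, without the pseudocount, was 6.63. The relative log2 fold was 1.87, higher than that of 98.0% of kept loci. In rank S100a4 was number 64 of all kept loci in deficient cells and number 372 in floxed cells. The gene lies on chromosome 3 from 90407692 to 90409967 (mm9, plus strand), with 2 transcripts that differ in their first exon. The one starting at 90407692 held 1545 FPKM in the deficient library (deposited bounds 1497 to 1593) and 220 FPKM in the floxed library (201 to 239). The transcript that starts 963 bases further on held 36.4 FPKM (26.1 to 46.7) in the deficient library and 18.3 FPKM (10.97 to 25.65) in the floxed library. In both transcripts the deficient library was higher and the bounds did not overlap. Such bounds describe the estimate within 1 library and not the spread between cultures.

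S100a16, a broadly expressed member reported in mouse preadipocytes to favour fat cell formation, was at 42.2 FPKM in the deficient library and 7.83 FPKM in the floxed library. The ratio of these levels, without the pseudocount, was 5.39, and the relative log2 fold was 1.44. The gene lies on chromosome 3 from 90341225 to 90347075 (plus strand), with 3 transcripts. The transcript that starts at 90341225 held the whole level in the deficient library at 42.2 FPKM (37.7 to 46.7), and in the floxed library it reached at most 0.25 FPKM by its bounds. The transcript that starts 2096 bases further on had an upper bound of 0.26 FPKM in the deficient library and held 7.83 FPKM (5.78 to 9.87) in the floxed library. The libraries were thus assigned different first exons, in transcripts that share 968 exonic bases, with 115 bases found only in the first and 67 only in the second. The third transcript stayed at an upper bound of 0.25 FPKM in the deficient library and 0.26 FPKM in the floxed library. The gene total does not depend on this assignment, but the fold of either transcript alone does.

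S100b, a protein of astrocytes, Schwann cells, chondrocytes and fat cells and a ligand of RAGE, was at 0.22 FPKM in the deficient library (0 to 0.47) and 3.41 FPKM in the floxed library (2.39 to 4.42). Its relative log2 fold was -2.71, which at these low levels leans on the pseudocount. It was -4.59 with a pseudocount of 0.1 FPKM and -1.12 with 5 FPKM. The gene has 1 transcript of 1661 nt, on chromosome 10 from 75716581 to 75724064 (plus strand), and is the only member outside chromosome 3. It was kept through the floxed library alone, where it ranked above 53.6% of kept loci. In bulk RNA, fewer cells of a type and less RNA per cell cannot be told apart. Of 10 adipocyte markers 3 were kept, all lower by over 2-fold relative to the median gene, against 11.8% of all kept loci. As deposited 2 of the 3 passed 2-fold downward, against 4.73% of all kept loci. Fabp4 did not, at 12.7 FPKM in deficient cells and 17.6 FPKM in floxed cells. Adipoq was at 0.10 FPKM in deficient cells and 9.87 FPKM in floxed cells. The adipocyte list summed to 15.8 FPKM in deficient cells and 204 FPKM in floxed cells. Lpl, which encodes lipoprotein lipase, made up most of the floxed sum with 176 FPKM, and Plin1, Lep, Retn and Pck1 were listed at 0 in both libraries. Of 10 Schwann cell and glial markers 8 were under 1 FPKM in both libraries, with Sox10, Gfap and Ngfr listed at 0. That list summed to 233 FPKM in deficient cells and 161 FPKM in floxed cells, nearly all of it from 2 genes that went opposite ways. Pmp22, a myelin protein gene, was at 156 FPKM in deficient cells and 51.0 FPKM in floxed cells, a relative log2 fold of 0.74. Ncam1, a neural cell adhesion gene, was called lower at 77.2 FPKM in deficient cells and 110 FPKM in floxed cells (-1.36), within 2-fold as deposited. The chondrocyte list summed to 4.61 FPKM in deficient cells and 4.39 FPKM in floxed cells, with 5 of 10 markers at 0 in both, and its kept genes also went opposite ways. Sox9, a transcription factor of cartilage, was called lower at 2.76 FPKM in deficient cells and 4.25 FPKM in floxed cells (-1.34), within 2-fold as deposited, and Matn3, a cartilage matrix gene, was at 1.79 FPKM in deficient cells and listed at 0 in floxed cells. The 6 melanocyte markers were all under 1 FPKM in both libraries. The part of any of these cell types in the level of S100b was not tested.

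The most abundant member was S100a6, or calcyclin, whose partners include the ubiquitin-ligase adaptor encoded by Cacybp. It was at 5903 FPKM in the deficient library and 4761 FPKM in the floxed library, number 8 among kept loci in deficient cells and number 16 in floxed cells. Its deposited ratio of 1.24 corresponded to a relative log2 fold of -0.55. S100a6 supplied 56.2% of the summed FPKM of the members in deficient cells and 64.5% in floxed cells. The members together held 1.5% of the FPKM of kept loci in deficient cells and 1.15% in floxed cells. S100a6 lies on chromosome 3 from 90416816 to 90418336 (plus strand). Its 447-nt transcript held 5136 FPKM (5034 to 5237) in deficient cells and 4121 FPKM (4028 to 4213) in floxed cells, and the 719-nt transcript, which starts 428 bases upstream, held 767 FPKM (737 to 797) in deficient cells and 640 FPKM (612 to 668) in floxed cells. The 447-nt transcript made up 87.0% of the gene in deficient cells and 86.6% in floxed cells, nearly the same share.

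S100a11, a partner of annexin A1, was at 2067 FPKM in the deficient library and 1645 FPKM in the floxed library, a relative log2 fold of -0.53. Its 2 transcripts went opposite ways. The 525-nt transcript held 1885 FPKM (1833 to 1938) in deficient cells and 507 FPKM (473 to 542) in floxed cells. The 504-nt transcript held 182 FPKM (160 to 204) in deficient cells and 1137 FPKM (1091 to 1184) in floxed cells. The longer transcript therefore made up 91.2% of the gene in the deficient library and 30.9% of it in the floxed library. Both start at 93324418 on chromosome 3 and share 495 exonic bases. They differ by 30 bases found only in the longer one, which ends at 93330240 in place of 93330210, and by 9 bases found only in the shorter one. With the most abundant transcript in place of the sum, S100a11 would be called higher, at 1.04 on the relative log2 scale. GENCODE M21 lists a processed pseudogene of S100a11 on chromosome 12 that is 93.7% identical to it over 303 aligned positions, so reads could be split between the copies and the level of S100a11 is uncertain.

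S100a10, which joins annexin A2 in a heterotetramer at the plasma membrane, was at 712 FPKM (685 to 738) in the deficient library and 559 FPKM (536 to 583) in the floxed library. Its relative log2 fold was -0.51, and its only transcript lies on chromosome 3 from 93359039 to 93368567 (plus strand). Its deposited bounds did not overlap, yet the ratio of 1.27 was below that of the median gene. S100a13, which helps FGF1 and interleukin 1 alpha leave the cell without a signal peptide, was at 138 FPKM in the deficient library and 95.1 FPKM in the floxed library, a relative log2 fold of -0.32. Of its transcripts, the 447-nt one held 104 FPKM (89.2 to 120) in deficient cells and 67.3 FPKM (54.7 to 79.9) in floxed cells. The 715-nt one held 34.0 FPKM (27.7 to 40.3) in deficient cells and 27.8 FPKM (22.1 to 33.5) in floxed cells, bounds that overlap.

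S100a1, known for its role in heart and skeletal muscle, where it binds ryanodine receptors, was at 62.3 FPKM (54.2 to 70.4) in the deficient library and 66.2 FPKM (57.7 to 74.6) in the floxed library. These bounds overlap, and the deposited ratio was 0.94. Its relative log2 fold of -0.94 stood just inside the 2-fold line, and S100a1 was called lower under 5 of 12 other settings of scaling, centring, pseudocount or filter. S100a1 and S100a13 lie head to head on opposite strands of chromosome 3, with 104 bases between the end of S100a1 at 90318252 and the start of S100a13 at 90318357. Their relative folds were -0.94 and -0.32.

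**Figure D3:**
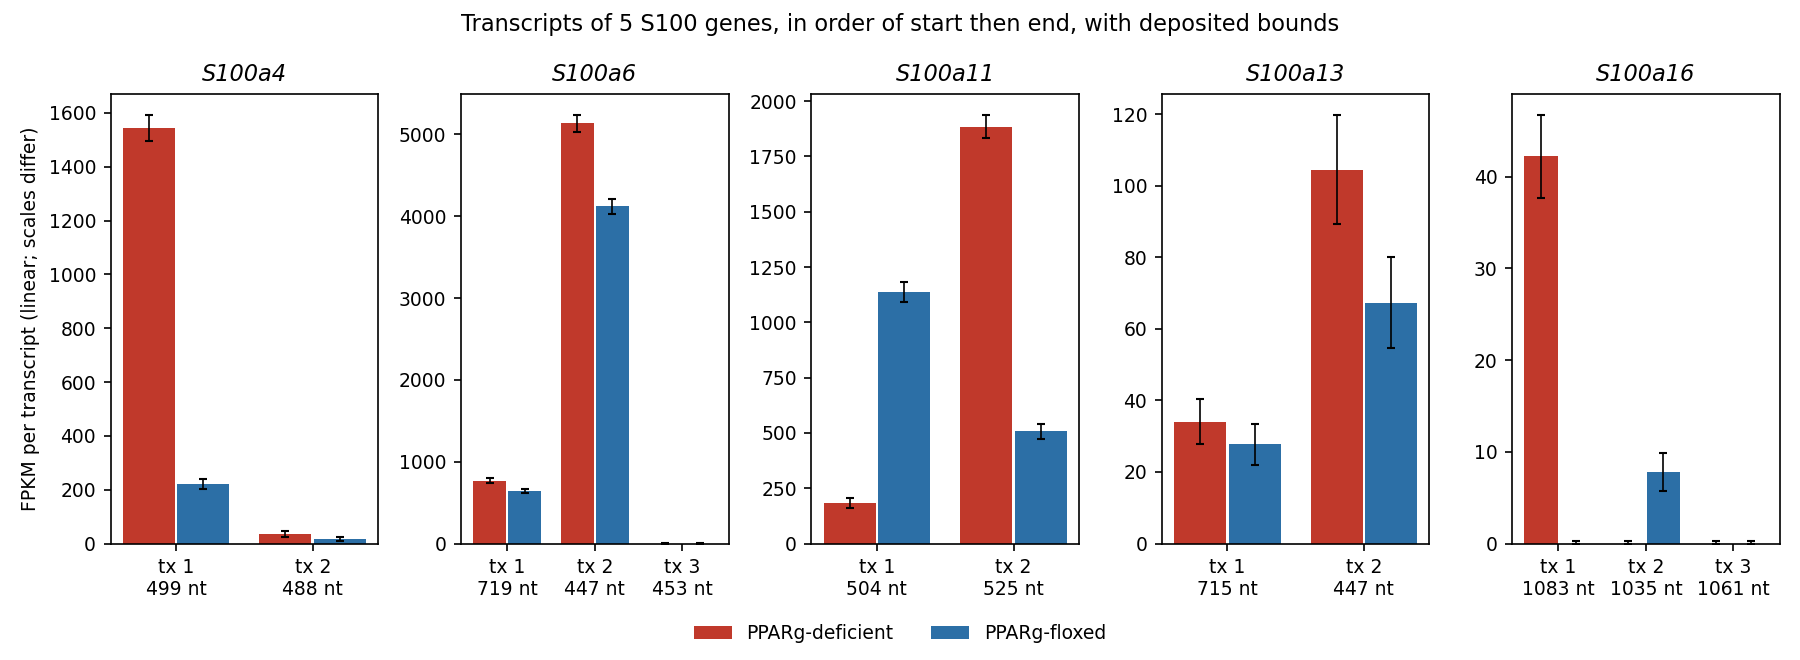
FPKM of each transcript (tx, numbered by start and then end, with its length in nt) of 5 S100 genes on linear axes that differ between panels, deficient library left and floxed library right, with error bars for the deposited bounds. The 2 S100a11 transcripts go opposite ways and S100a16 is assigned to different transcripts in the libraries, whereas in S100a4 and S100a6 the main transcript is the same in both.

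In order of level, deficient cells ran S100a6, S100a11, S100a4, S100a10, S100a13, S100a1, S100a16 and S100b, from high to low. The floxed order differed in 1 place, with S100a10 above S100a4. No spread between cultures was available for these steps. By the deposited bounds of their main transcripts, S100a13 and S100a1 in the floxed library overlapped, and the other neighbours in either order did not. These genes are short, with a median longest transcript of 682.5 nt against 2505 nt for all kept loci. Among 674 named loci of similar length (within 1.5-fold) the median relative log2 fold was 0.16, 19.1% were called higher and 12.9% lower.

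S100a8 and S100a9, which together form calprotectin, an abundant cytosolic complex of neutrophils and a ligand of TLR4 and RAGE, were listed at 0 with bounds of 0 in both libraries. They lie on chromosome 3 from 90472993 to 90473956 (plus strand) and from 90496555 to 90499613 (minus strand). No fold was computed for them, and a listed 0 can be a failed estimate. Of 15 granulocyte markers that could be matched, 12 were listed at 0 in both libraries, Elane, Ltf, Itgam and Ptprc among them, and the list summed to 6.90 FPKM in deficient cells and 6.52 FPKM in floxed cells. Camp, a granule peptide gene, supplied most of that with 6.78 FPKM in deficient cells and 6.41 FPKM in floxed cells. The macrophage list summed to 110 FPKM in deficient cells and 32.1 FPKM in floxed cells. Of its 4 kept genes Lyz2 alone was called higher and 0 were called lower, against 10.3% and 11.8% of all kept loci. As deposited 3 were higher and 0 lower, against 41.9% and 4.73% of all kept loci. Cd14, also in the receptor list below, was at 12.5 FPKM in deficient cells and 4.52 FPKM in floxed cells, a relative log2 fold of 0.43. Lyz2, the lysozyme gene, was at 19.5 FPKM in deficient cells and 0.26 FPKM in floxed cells, and its reads could be shared with its close copy Lyz1. Lgmn, a lysosomal protease gene, was at 75.9 FPKM in deficient cells and 25.7 FPKM in floxed cells, a relative log2 fold of 0.67. Adgre1, Fcgr1, C1qa, C1qb and C1qc were at 0 in both.

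Other S100 genes were scarce. S100a3, a gene of the hair cuticle, was at 12.6 FPKM (9.38 to 15.9) in the deficient library and 1.73 FPKM (0.51 to 2.96) in the floxed library, a relative log2 fold of 1.46. S100a7a, a psoriasin-type gene of inflamed skin, was at 10.7 FPKM in deficient cells and 0.40 FPKM in floxed cells (2.21). S100a5 was at 2.35 FPKM in deficient cells and listed at 0 in floxed cells. S100a2 and S100a14 stayed under 1 FPKM, and S100g was listed at 0 in both libraries. Of 9 such symbols looked for, 6 were matched and 3 kept, S100a5 and S100a7a through the deficient library alone. Keratinocyte markers were all under 5 FPKM, with the list at 4.37 FPKM in deficient cells and 5.65 FPKM in floxed cells and Krt1 and Epcam at 0 in both. Trp63, a transcription factor of basal skin cells, was called lower at 0.09 FPKM in deficient cells and 4.19 FPKM in floxed cells (-3.11), while the keratin gene Krt10 was at 4.03 FPKM in deficient cells and 1.40 FPKM in floxed cells (0.21).

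Of the members, 9 lie on chromosome 3 in mm9: 7 within 185 kb, from S100a1 to S100a9, and S100a11 and S100a10 about 2825 kb further on. S100a3, S100a4, S100a5 and S100a6 follow each other within that block, and of these S100a3 and S100a4 were called higher while S100a6 was within 2-fold. Between the outermost members lay 57 loci outside the S100 family, and 48 of them were listed at 0 in both libraries. The 5 that were kept all had at least 5 FPKM. Relative to the median gene 1 was called higher and 0 lower, against 10.3% and 11.8% of all kept loci. That called locus was at 7.38 FPKM in deficient cells and 2.7e-07 FPKM in floxed cells. It covers the same interval, 92231968 to 92233346, as another of the 5 on the opposite strand, so this interval is counted on both strands. As deposited, 4 of the 5 kept loci passed 2-fold upward and 0 downward, against 41.9% and 4.73% of all kept loci. The only named one was Lce1g, a cornified envelope gene from a multigene family and so uncertain, at 9.21 FPKM in deficient cells and 5.32 FPKM in floxed cells.

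Partners that S100 proteins bind inside the cell had 13 kept genes of 21, with 1 called higher and 4 lower and a median relative log2 fold of -0.41. Over all kept loci the shares called were 10.3% higher and 11.8% lower. The 8 partner genes not kept were under 1 FPKM in both libraries. Among them were Il1a and Ryr1, listed at 0 in both, and Fgf1 and Ryr2. The balance of this list turned with the scaling, since 6 were higher and 1 lower as deposited, with a median of 0.44, against 41.9% and 4.73% of all kept loci. Numbers in parentheses after levels are relative log2 folds. Annexins were the abundant partners. Anxa1, the partner of S100a11, was at 6432 FPKM in deficient cells and 5963 FPKM in floxed cells (-0.75). Anxa2, the partner of S100a10, was at 2419 FPKM in deficient cells and 4622 FPKM in floxed cells (-1.79). Anxa5 was at 887 FPKM in deficient cells and 2178 FPKM in floxed cells (-2.15), and Anxa6 at 165 FPKM in deficient cells and 224 FPKM in floxed cells (-1.30). Capza1, an actin-capping subunit whose product carries an S100b-binding sequence, was at 72.0 FPKM in deficient cells and 144 FPKM in floxed cells (-1.85). Of the 4 called lower, Anxa5 alone passed 2-fold as deposited.

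Ahnak, a scaffold held by S100a10 and annexin A2, was at 24.7 FPKM in deficient cells and 7.47 FPKM in floxed cells (0.75). Cacybp, the S100a6 partner, was at 82.0 FPKM in deficient cells and 36.8 FPKM in floxed cells (0.28). Myh9, the myosin heavy chain that S100a4 binds, was at 4.96 FPKM in deficient cells and 0.70 FPKM in floxed cells (0.96). Mdm2, the p53 regulator, was called higher at 17.4 FPKM in deficient cells and 3.34 FPKM in floxed cells (1.23). For the extracellular roles, the RAGE gene Ager was at 0.09 FPKM in deficient cells and listed at 0 in floxed cells. Tlr4 was at 6.24 FPKM in deficient cells and 3.53 FPKM in floxed cells (-0.18), and its co-receptor Ly96 at 33.0 FPKM in deficient cells and 16.4 FPKM in floxed cells (0.11). Of 6 kept receptor genes 1 was called higher and 1 lower, against 10.3% and 11.8% of all kept loci. As deposited 2 were higher and 1 lower, against 41.9% and 4.73% of all kept loci. Bsg, which encodes basigin, was called higher (93.7 FPKM in deficient cells, 16.6 FPKM in floxed cells, 1.57). Alcam was called lower (1.98 FPKM in deficient cells, 8.80 FPKM in floxed cells, -2.58).

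The plasminogen system, which the S100a10 and annexin A2 complex gathers at the cell surface, had 5 kept genes, 1 called higher and 2 lower, with a median of 0.19. As deposited these were 3 higher and 1 lower, with a median of 1.05, so here too the balance turned with the scaling. Among all kept loci 10.3% were called higher and 11.8% lower, and 41.9% and 4.73% passed 2-fold as deposited. Plat, the tissue plasminogen activator, was at 44.7 FPKM in deficient cells and 154 FPKM in floxed cells (-2.62). Plaur, the urokinase receptor, was at 32.8 FPKM in deficient cells and 5.17 FPKM in floxed cells (1.60). Serpine2, a serpin that inhibits plasminogen activators, was at 20.5 FPKM in deficient cells and 23.5 FPKM in floxed cells (-1.05), within 2-fold as deposited, and Plg itself was listed at 0 in both. Other EF-hand calcium sensors had 18 kept genes, 6 called higher and 3 lower, with a median of 0.26, against 10.3% and 11.8% of all kept loci. As deposited 10 were higher and 1 lower, with a median of 1.11, against 41.9% and 4.73% of all kept loci. Calm2, which encodes calmodulin, was called lower at 1645 FPKM in deficient cells and 4202 FPKM in floxed cells (-2.21). Calm3, which encodes the same protein, was called higher at 19.9 FPKM in deficient cells and 4.17 FPKM in floxed cells (1.16). Cib1, a calcium and integrin binding protein gene, was at 21.2 FPKM in deficient cells and 1.75 FPKM in floxed cells (2.16).

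**Figure D4:**
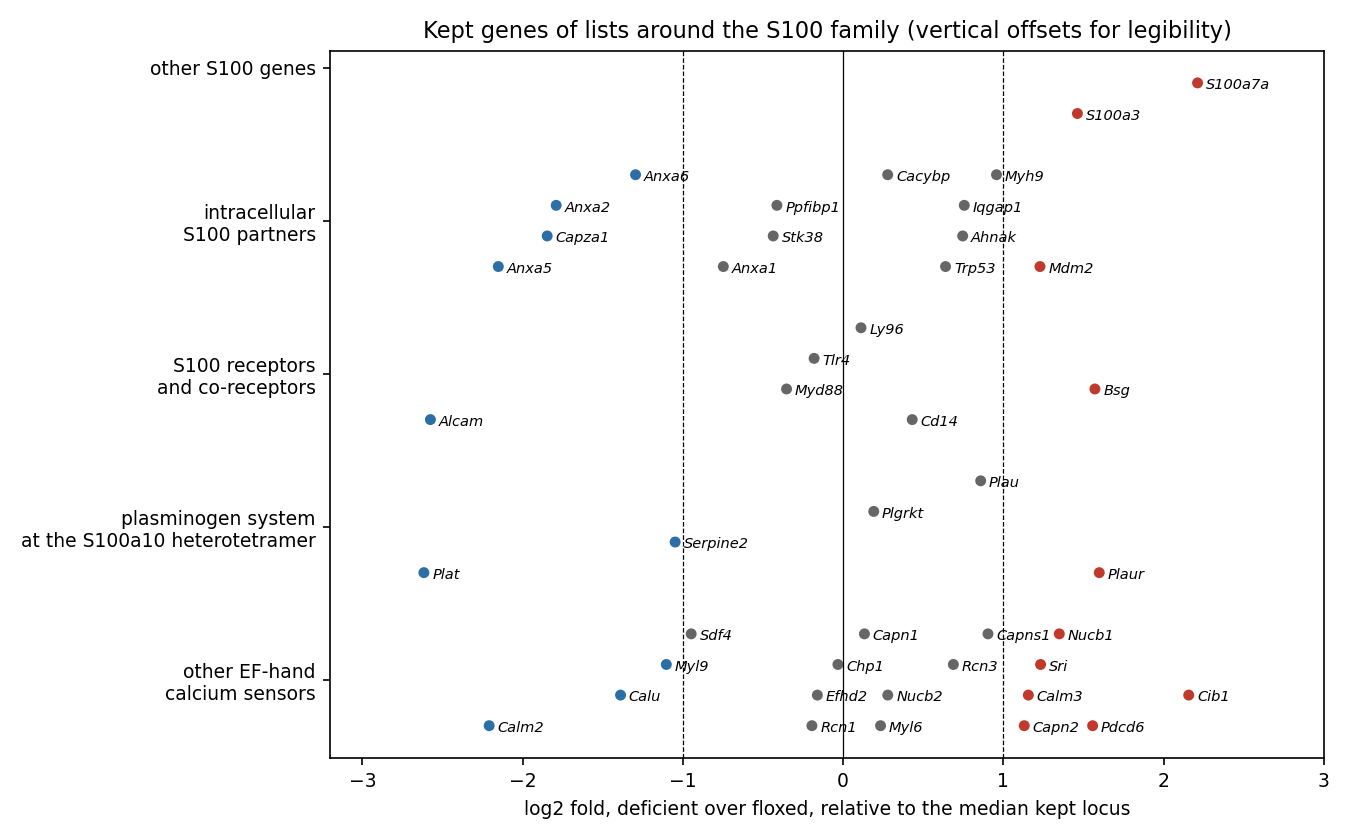
Relative log2 fold, deficient over floxed, of the kept genes in 5 lists around the S100 family, 1 point per gene, with dashed lines at 2-fold and genes listed at 0 in a library left out. Annexin genes Anxa2, Anxa5 and Anxa6 lie left of the lines, with S100a3, S100a7a and Cib1 to the right.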

How the data were processed

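RNA from cultured mouse bone marrow stromal cells was sequenced on a HiSeq2000 in 2 libraries, grouped by their genotype labels. The authors deposited FPKM per transcript with lower and upper bounds and coverage, inside an attribute column with other text, as Cufflinks writes it. The build mm9 and the tools Cufflinks 2.0.2, TopHat2 2.0.5 and Cuffdiff 2.0.2 appear without roles, per the submitters' processing notes. The sources used here give no annotation, filters or strand handling.

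The files list 45543 transcripts in 25707 loci without symbols. Loci were named by the ordered lengths of introns and internal exons of their transcripts, on the same chromosome and strand, against GENCODE M21. No coordinate was converted. All 10 members were named by a whole chain, each as a single locus with which no other locus overlapped. Of 36943 chains of at least 2 introns, 25605 matched on their own chromosome and 0 on a wrong one. The 136 loci that matched several genes were split by gene. FPKM was summed per gene. With 1 library a group nothing was tested for significance. The fold and centring steps were checked on simulated gene levels with known folds. Recovery was checked on abundant genes centred on their own median, and locus naming and transcript sums were not part of that check. The pseudocount pulls the folds of low genes toward 0, so the median gene understates a common shift for abundant genes. Named loci with a mean level between those of S100b and S100a6 had a median relative log2 fold of 0.11. That range still holds low genes, as S100b is the lowest kept member. With the filter of 5 FPKM the relative log2 fold of S100a6 moved further, from -0.55 to -0.76. Members and lists were chosen with earlier results of these data known. Every member is given, and from each list genes of at least 5 FPKM could be named, of which some were picked, together with genes under that level (among them Myh9, Ager and S100a5), after their values were seen. A few list genes are not reported here and were left out of their lists. Promoter windows are from RefSeq (GRCm38.p6). Alternatives were other pseudocounts, filters, scalings, centrings, transcript summaries and fold thresholds. Python 3.11.15, numpy 2.4.6, pandas 2.3.3 and matplotlib 3.10.9 were used.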

Additional observations from a re-analysis of the deposited data

How the results depend on the processing

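S100a4 and S100a16 stayed at least 2-fold higher, and S100b at least 2-fold lower, in all 12 alternatives that recompute folds, though S100b drops below the filter of 5 FPKM and is then not counted. Over these alternatives, some of them without centring, the log2 fold ranged from 1.59 to 2.72 for S100a4 (2.72 as deposited), from 1.22 to 4.59 for S100a16 and from -4.59 to -1.12 for S100b. At a 4-fold threshold 0 members were called higher and S100b was still called lower. The count of members called lower was 2, with S100a1 added, under a pseudocount of 0.1 FPKM, upper-quartile scaling, centring on length-matched genes, centring on expression-matched genes and a 1.5-fold threshold. With the filter of 5 FPKM the 1 member called lower was S100a1. Without centring S100a6, S100a10, S100a11 and S100a13 lay above 0, with values of 0.31, 0.35, 0.33 and 0.54, and below 0 relative to the median gene. They also lay above 0 as TPM, which was likewise not centred, and with no filter on low values. S100a13 did so too with a pseudocount of 5 FPKM (0.09).

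Over all kept loci, 1112 were called higher and 1270 lower. Without centring these were 4510 and 509, with no filter on low values 4206 and 541, and as TPM 4570 and 603. Calls higher were 1726 with a pseudocount of 0.1 FPKM and 738 with the filter of 5 FPKM, and calls lower were 434 with a pseudocount of 5 FPKM. A threshold of 1.5-fold gave 2360 higher and 2206 lower, and 4-fold gave 164 and 431. In the runs that differ in filter or threshold, the number of loci tested or the size asked for changed by construction. The folds without centring and the TPM folds did not have the median subtracted, so their counts are not on the relative scale. For the changes of pseudocount the cause was not tested. No paired analysis was possible because each group holds 1 library, and no replicate could be left out. Fragment numbers are unknown, so how far depth limits the lowest values could not be computed.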
